A study of Homo sapiens with 2 samples.

Results

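The IGF binding proteins and receptors are 10 genes of the insulin-like growth factor (IGF) system: the binding protein genes IGFBP2 to IGFBP7, the receptor genes IGF1R, IGF2R and INSR, and IRS1, which encodes an adaptor below IGF1R and INSR. They were taken by symbol from the feature table, which held all 10 among 36601 genes, by a rule that reads symbols only. Their messenger RNA was counted in single cells of 6 human breast cancer cell lines by droplet 3′ sequencing, in which each line was stained with its own multiplexing oligo. BT-474 is a hormone receptor positive line with amplified HER2 and MDA-MB-453 a luminal line with androgen receptor, while HCC38, Hs578T, MDA-MB-436 and MDA-MB-231 lack the hormone receptors and HER2 amplification. The labels name no treatment, and each line was 1 culture in 1 of 2 pools of 3 lines, so there was no replicate of any line and no p-value is given. The study looked for surface markers that part subpopulations within a line.

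IGF1 and IGF2 are secreted growth factors that signal through the receptor tyrosine kinase IGF1R, and in part through the insulin receptor INSR, to IRS1 and the PI3K and AKT kinases. Most IGF in tissue is held by secreted binding proteins, which carry it, keep it from its receptor or release it when a protease cuts them. IGF2R, the mannose 6-phosphate receptor, takes up IGF2 for breakdown and does not signal like a kinase receptor. In breast tissue the system is known for its link to oestrogen receptor signalling, and several binding proteins also act on cells without IGF.

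The barcodes carried suffixes 1 to 6, and each suffix was 1 oligo. No label ties an oligo to a line, so the groups were named from markers. Group 1 led 9 of 9 measured BT-474 markers and is called BT-474-like, though it also led DHRS2 and MUCL1 of the MDA-MB-453 list. The MDA-MB-231-like group 2 led 4 of 4 of its markers, the MDA-MB-453-like group 3 led 4 of 6, the HCC38-like group 4 led 4 of 5 and the Hs578T-like group 5 led 7 of 7. Group 6 led 5 of 5 MDA-MB-436 markers and had RB1 at 5.03 CPM (counts per 1000000 UMIs of a group), but it keeps its number here and is MDA-MB-436 by elimination only. Immune and endothelial markers reached at most 1.11 CPM in every group. With at most 20% of UMIs from mitochondrial (MT-) genes, 15547 of 17605 barcodes were kept, 1989 to 3451 per group, with median depths of 20306 to 38069 UMIs. Mitochondrial UMIs had a median share of 14.5% in BT-474-like cells and of 5.84% to 9.87% in the other groups. Groups 1 to 3 came from the first capture and groups 4 to 6 from the second, so a difference between groups of different captures cannot be told apart from the capture. The captures shared 22 barcode sequences and none was shared within a capture.

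The binding protein genes lie apart in the genome except for 2 neighbouring pairs. In GENCODE 29 on GRCh38, IGFBP2 lies at chr2:216632828-216664436 on the plus strand and IGFBP5 at chr2:216672105-216695525 on the minus strand, so that their 3′ ends face each other across 7.67 kb. IGFBP3 lies at chr7:45912245-45921874 on the minus strand, 18.6 kb from IGFBP1, which is no member. IGFBP4 is at chr17:40443461-40457731, IGFBP6 at chr12:53097436-53102345 and IGFBP7 at chr4:57030773-57110385. Among the receptors, IGF1R is at chr15:98648539-98964530, IGF2R at chr6:159969099-160113507 and INSR at chr19:7112255-7294034. IRS1 is at chr2:226731317-226799759. All are protein-coding.

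Promoter sequences of 9 of the 10 members were found in the RefSeq table (GRCh38.p14). The 250 bases before the transcription start are shown for IGFBP3, the member with a wide spread between cells in several groups, for IGFBP4, the member that stood highest above its next group, and for IGFBP5, the member with the largest range between groups. The IGFBP3 window lies before the RefSeq start, which is inside the span GENCODE gives that gene. Letters run 5′ to 3′ on the gene's strand, and capitals mark the TATA-type letters TATAAA or TATATA and the GC box GGGCGG, each searched on both strands, so that a GC box on the other strand reads CCGCCC.
IGFBP3, chr7:45921273-45921522, strand -: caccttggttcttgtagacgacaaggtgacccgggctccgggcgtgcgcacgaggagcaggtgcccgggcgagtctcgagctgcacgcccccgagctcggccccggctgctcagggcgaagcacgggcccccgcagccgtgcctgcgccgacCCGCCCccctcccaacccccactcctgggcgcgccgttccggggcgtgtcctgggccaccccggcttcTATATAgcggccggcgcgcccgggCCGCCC
IGFBP4, chr17:40443200-40443449, strand +: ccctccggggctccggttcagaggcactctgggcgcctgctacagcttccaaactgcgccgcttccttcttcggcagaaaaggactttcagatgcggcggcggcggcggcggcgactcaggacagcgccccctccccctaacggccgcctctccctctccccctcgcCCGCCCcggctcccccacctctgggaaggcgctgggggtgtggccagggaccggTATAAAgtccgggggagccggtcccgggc
IGFBP5, chr2:216695550-216695799, strand -: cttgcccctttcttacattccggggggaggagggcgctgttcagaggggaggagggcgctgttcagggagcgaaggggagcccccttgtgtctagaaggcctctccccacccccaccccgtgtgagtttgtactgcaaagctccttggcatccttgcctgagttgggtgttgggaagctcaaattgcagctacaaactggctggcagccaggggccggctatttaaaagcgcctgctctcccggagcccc
IGFBP3 held 1 TATATA and 2 GC boxes, IGFBP4 held 1 TATAAA and 1 GC box, and IGFBP5 held neither motif. TATAAA was found in 10.7%, TATATA in 3.73% and GGGCGG in 42.6% of 35116 promoter windows of the same length. Across the 9 members, 8 windows held a GC box and 2 held a TATA-type motif, those of IGFBP3 and IGFBP4. IGF2R held 6 GC boxes and 3 copies of CACGTG, which 6.34% of all windows held at least 1 time. The window of IGFBP5 had 61.2% G and C with 8 CpG, against 76.0% with 32 CpG for IGFBP3 and a median of 58.0% with 11 CpG over all windows. A match is a description of these letters only.

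Levels are sums of UMI counts over the cells of a group, in CPM. A 3′ count does not rank genes against each other, so values are compared between groups for 1 gene at a time. The intervals are exact Poisson or conditional binomial intervals at 95% and cover counting error only, not the spread between cells or variation between cultures. Fewer cells with a transcript and less of it per cell cannot be told apart in such sums and are taken up with the single cells.

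IGFBP2 and IGFBP5, the neighbours on chromosome 2, were both high in the MDA-MB-453-like and BT-474-like groups. IGFBP2 was at 188 CPM in BT-474-like cells, 7.32 in MDA-MB-231-like cells, 205 in MDA-MB-453-like cells, 24.1 in HCC38-like cells, 3.16 in Hs578T-like cells and 132 in group 6. It therefore had 3 groups above 100 CPM and 3 below 25, and group 6 was the 1 triple-negative group among the high ones. IGFBP5, a binding protein that sticks to extracellular matrix, was at 3401 CPM in BT-474-like cells, 65.5 in MDA-MB-231-like cells, 969 in MDA-MB-453-like cells, 54.6 in HCC38-like cells, 65.9 in Hs578T-like cells and 3.45 in group 6. The BT-474-like level was 3.51-fold that of the MDA-MB-453-like group (interval 3.48 to 3.54) and 986-fold that of group 6 (876 to 1115), a fold that rests on the low level in group 6, which was 1.31 CPM without doublets and barcodes mixed with a second line. Group 6 thus parted the neighbours, with IGFBP2 4.16-fold higher and IGFBP5 54.2-fold lower than the mean of the other 5 groups.

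IGFBP3, the main carrier of IGF in blood, was present in every group and had the narrowest range of the 6 binding proteins. Its level was 124 CPM in BT-474-like cells, 34.3 in MDA-MB-231-like cells, 64.1 in MDA-MB-453-like cells, 171 in HCC38-like cells, 152 in Hs578T-like cells and 52.2 in group 6. The HCC38-like level was 1.13-fold the Hs578T-like (interval 1.10 to 1.15) and 5.00-fold the MDA-MB-231-like (4.80 to 5.20). The order of the upper pair was not stable: the log2(CPM + 1) difference of the HCC38-like minus the Hs578T-like group was 0.17 with CPM and -0.11 with TMM scaling. TMM, which scales groups to a common core of genes, moved the median over all genes of log2 ratios against the other 5 groups from 0.16 to -0.10 in the HCC38-like and from -0.28 to -0.11 in the BT-474-like group.

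IGFBP4 and IGFBP7 were highest in the MDA-MB-231-like group. IGFBP4, whose protein holds IGF until the protease PAPPA cuts it, was at 55.0 CPM in BT-474-like cells, 445 in MDA-MB-231-like cells, 12.53 in MDA-MB-453-like cells, 57.5 in HCC38-like cells, 83.0 in Hs578T-like cells and 10.1 in group 6. The MDA-MB-231-like group stood 5.36-fold above the next, the Hs578T-like (5.22 to 5.50), while the HCC38-like and BT-474-like values overlapped within counting error. IGFBP7, a relative that binds IGF weakly and is known from vessels and stroma, was at 7.17 CPM in BT-474-like cells, 564 in MDA-MB-231-like cells, 8.26 in MDA-MB-453-like cells, 53.4 in HCC38-like cells, 530.3 in Hs578T-like cells and 17.5 in group 6. The MDA-MB-231-like and Hs578T-like levels were 1.06-fold apart (1.05 to 1.08), and both were at least 9.94-fold above the HCC38-like level.

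IGFBP6, which prefers IGF2 over IGF1, divided the lines by type. It was at 3.06 CPM in BT-474-like cells, 158 in MDA-MB-231-like cells, 3.37 in MDA-MB-453-like cells, 174 in HCC38-like cells, 82.5 in Hs578T-like cells and 107 in group 6. The 4 triple-negative groups lay between 82.5 and 174 CPM and the 2 others at 3.37 or less. With TMM scaling the highest group was the MDA-MB-231-like instead of the HCC38-like. Both low groups were in the first capture, where the MDA-MB-231-like group was 51.6-fold above the BT-474-like (45.1 to 59.3) and 46.7-fold above the MDA-MB-453-like group (41.3 to 53.1).

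**Figure D1:**
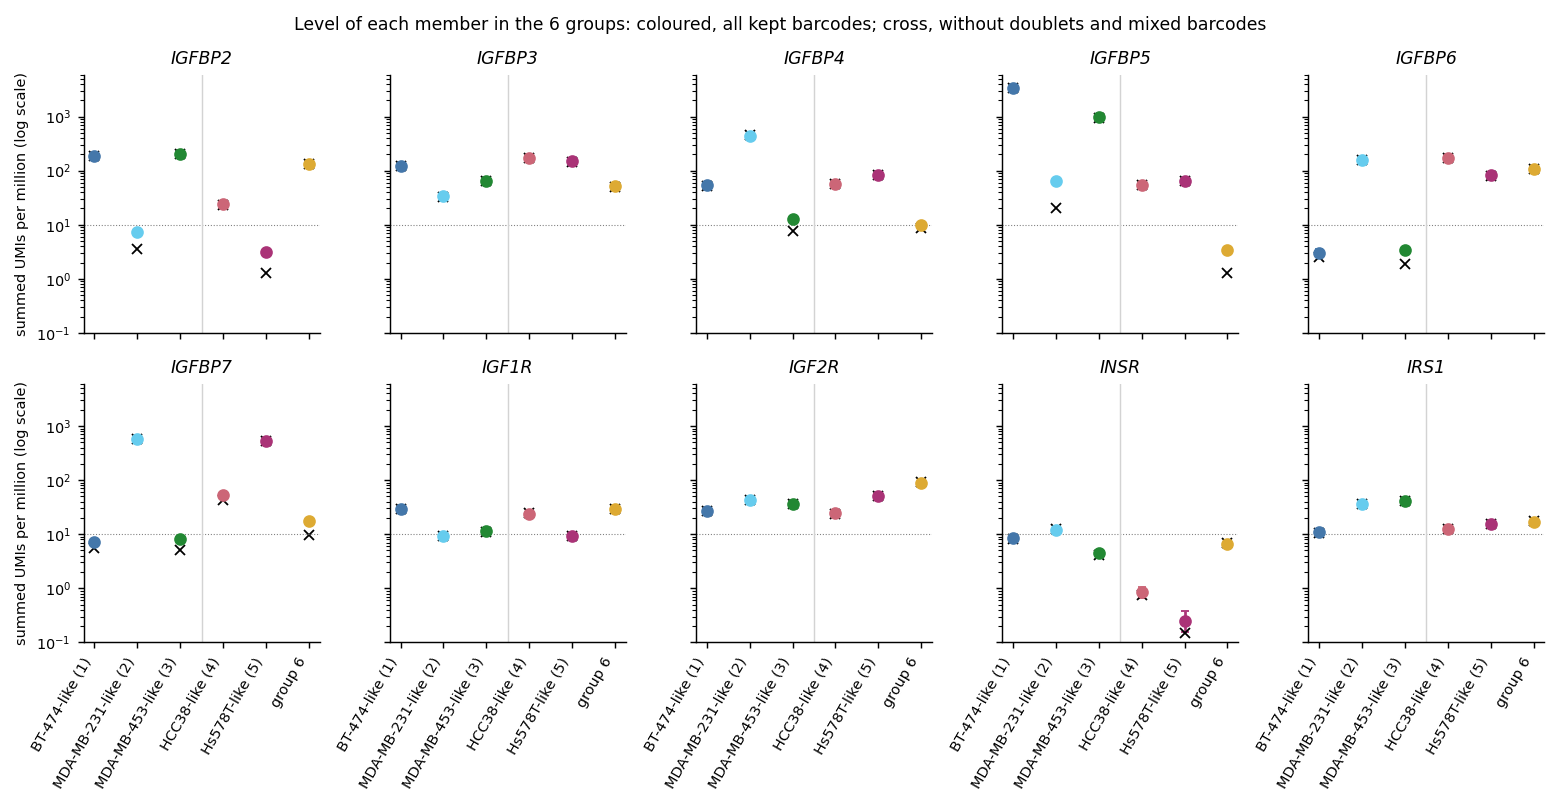
Level of each of the 10 members in the 6 groups, in CPM on a log axis, with 95% counting intervals as bars that are mostly smaller than the points; the grey line parts the captures, the dotted line is 10 CPM, and crosses leave out doublets and mixed barcodes. IGFBP5 runs from 3401 in the BT-474-like group to 3.45 in group 6, while IGF1R stays between 9.20 and 29.5.

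Of the receptors and IRS1, INSR had the widest range between groups and the other 3 had narrower ranges than any binding protein. IGF1R, the kinase receptor of IGF1 and IGF2, was at 29.5 CPM in BT-474-like cells, 9.20 in MDA-MB-231-like cells, 11.3 in MDA-MB-453-like cells, 24.0 in HCC38-like cells, 9.22 in Hs578T-like cells and 29.5 in group 6. The BT-474-like group and group 6 did not differ beyond counting error (ratio 1.00, interval 0.942 to 1.06), nor did the MDA-MB-231-like and Hs578T-like groups. IGF2R was at 26.4 CPM in BT-474-like cells, 43.2 in MDA-MB-231-like cells, 36.3 in MDA-MB-453-like cells, 24.96 in HCC38-like cells, 50.1 in Hs578T-like cells and 90.1 in group 6. Group 6 was 1.80-fold above the next group (1.73 to 1.87), and the BT-474-like and HCC38-like intervals overlapped at the low end.

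INSR, the insulin receptor, was at 8.38 CPM in BT-474-like cells, 12.1 in MDA-MB-231-like cells, 4.40 in MDA-MB-453-like cells, 0.849 in HCC38-like cells, 0.253 in Hs578T-like cells and 6.68 in group 6. The Hs578T-like value rested on 21 UMIs and the HCC38-like on 82, against 529 to 1032 in group 6, the BT-474-like and the MDA-MB-231-like groups. IRS1, the adaptor that carries the signal of both kinase receptors to PI3K, was at 10.8 CPM in BT-474-like cells, 36.0 in MDA-MB-231-like cells, 40.8 in MDA-MB-453-like cells, 12.6 in HCC38-like cells, 15.5 in Hs578T-like cells and 16.9 in group 6. The MDA-MB-453-like group was 3.79-fold above the BT-474-like (3.501 to 4.11), and the values of group 6 and the Hs578T-like group overlapped.

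RNA of one line also appeared in barcodes of another line of its pool, which bears on the low values. For 20 genes most specific to 1 group, the other groups of its capture held a median of 1.28% to 3.55% of that group's level. IGFBP5 in the MDA-MB-231-like group was at 1.92% of the BT-474-like level, where the specific genes had a median of 2.06%. IGFBP7 was at 1.27% of the MDA-MB-231-like level in BT-474-like cells and at 1.47% in MDA-MB-453-like cells, beside medians of 1.28% and 1.65%, and in group 6 at 3.31% of the Hs578T-like level beside 2.94%. IGFBP6 in BT-474-like cells was at 1.94% of the MDA-MB-231-like level, and IGFBP2 in Hs578T-like cells at 2.39% of that of group 6. All of these lie within the range of the specific genes and are read as background. Just above that range were IGFBP6 in MDA-MB-453-like cells, at 2.14% where the highest specific gene had 2.09%, and IGFBP2 in MDA-MB-231-like cells, at 3.57% where it had 3.16%. The same held for IGFBP4 in MDA-MB-453-like cells, at 2.82% of the MDA-MB-231-like level where the highest specific gene had 2.09%. IGFBP5 in group 6 was at 5.24% of the Hs578T-like level where the highest specific gene had 4.41%. When doublets and barcodes with genes of a second line (mixed barcodes) were left out, IGFBP5 in the MDA-MB-231-like group went from 65.5 to 20.7 CPM, IGFBP7 in group 6 from 17.5 to 9.75, IGFBP4 in the MDA-MB-453-like group from 12.53 to 7.63 and IGFBP2 in the MDA-MB-231-like group from 7.32 to 3.55. IGFBP5 in group 6 went from 3.45 to 1.31 CPM and IGFBP2 in Hs578T-like cells from 3.16 to 1.30, so folds against these groups move with the barcodes kept. INSR was at 12.7% of group 6 in HCC38-like and at 3.78% in Hs578T-like cells, and IGFBP2 was at 18.2% in HCC38-like cells. These also lay within the range of the specific genes, which reached 19.6% and 15.7% there with medians of 3.03% and 2.94%. Under so wide a range, background and transcripts of the cells themselves cannot be told apart. IGFBP2 in HCC38-like cells was at 24.1 and 23.6 CPM with and without those barcodes, and IGFBP5 in HCC38-like cells at 54.6 and 53.3 and in Hs578T-like cells at 65.9 and 65.3.

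Set against all genes, the members differed widely between the lines, but the high level was mostly shared by several groups. The median log2 difference between the highest and lowest group was 4.36 for the 10 members and 1.77 for all 10901 genes that reached 10 CPM in at least 1 group. From the highest group to the next it was 0.18 for the members and 0.38 for all genes. At least 4-fold above the next group was 1 of 10 members, IGFBP4 in the MDA-MB-231-like group, beside 6.16% of all genes. Just under that limit was IGFBP5 in the BT-474-like group, with a log2 difference of 1.81.

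Against the mean log2(CPM + 1) of the other 5 groups, the MDA-MB-231-like group had 5 members at least 2-fold higher (background 11.2% of all genes) and 3 at least 2-fold lower (10.6%). IGFBP7 was 17.0-fold, IGFBP4 13.4-fold and IGFBP6 5.14-fold higher there, with INSR and IRS1 at 3.36-fold and 2.04-fold. IGFBP2, IGFBP3 and IGFBP5 were 6.71-fold, 2.91-fold and 2.11-fold lower. The BT-474-like group had 3 higher members (10.6%), with IGFBP5 at 53.2-fold and IGFBP2 at 6.32-fold, and 2 lower members (21.4%), IGFBP6 and IGFBP7. In the MDA-MB-453-like group 3 members were higher (13.3%), IGFBP5 at 11.8-fold, IGFBP2 at 7.02-fold and IRS1 at 2.36-fold, and 3 were lower (18.8%). The HCC38-like group had 2 higher (16.2%), IGFBP6 at 5.77-fold and IGFBP3 at 2.30-fold, and 2 lower (6.79%), IGFBP5 and INSR. IGFBP5 came to a log2 ratio of -0.90 without doublets and mixed barcodes, and INSR to -0.85 with a pseudocount of 5 CPM, both short of 2-fold. With TMM scaling the log2 ratio of IGFBP3 there was 0.95, under the limit of 1. The Hs578T-like group had 2 higher (14%), IGFBP7 at 15.8-fold and IGFBP6 at 2.38-fold, and 3 lower (12%). IGFBP5, 1 of these 3, came to a log2 ratio of -0.56 without doublets and mixed barcodes. Group 6 had 3 higher (14.3%), IGFBP2 at 4.16-fold, IGFBP6 at 3.25-fold and IGF2R at 2.54-fold, and 3 lower (12.9%), IGFBP5, IGFBP4 and IGFBP7.

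Within a capture the droplet run is shared, and there the binding proteins made up most of the differences. Between the BT-474-like and MDA-MB-231-like groups 8 of 10 members were at least 2-fold apart, where 38.8% of all genes were. The MDA-MB-231-like group had more IGFBP7 (78.6-fold), IGFBP6 (51.6-fold), IGFBP4 (8.09-fold) and IRS1 (3.34-fold), and less IGFBP5, IGFBP2, IGFBP3 and IGF1R. Of the MDA-MB-453-like and BT-474-like groups, 4 of 7 measured members were apart (28.6%): IGFBP4, IGFBP5 and IGF1R were 4.39-fold, 3.51-fold and 2.60-fold higher in the BT-474-like group and IRS1 was 3.79-fold higher in the MDA-MB-453-like group. The MDA-MB-231-like and MDA-MB-453-like groups were apart in 6 of 10 (37.3%).

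In the second capture, the HCC38-like and Hs578T-like groups were apart in 4 of 9 members (31.4%), with IGFBP7 9.94-fold higher in the Hs578T-like group and IGFBP2, IGF1R and IGFBP6 7.61-fold, 2.60-fold and 2.10-fold higher in the HCC38-like group. Group 6 was apart from the HCC38-like group in 6 of 9 (35.6%) and from the Hs578T-like group in 6 of 9 (30.7%). Its IGFBP2 was 5.50-fold and 41.9-fold above these groups, while its IGFBP3 was 3.28-fold and 2.91-fold below them. INSR, too low to count between the HCC38-like and Hs578T-like groups, was under the limit of 10 CPM in all 3 groups of this capture.

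The ligands themselves were close to absent from the libraries. Of IGF1, IGF2, INS and IGFALS, 0 of 4 reached 10 CPM in any group, and the highest value was IGF1 in the BT-474-like group at 0.357 CPM. The other genes of the pathway lists are given by count. Of 10 measured genes with an IGF binding domain outside the members, 4 were at least 4-fold above the next group, beside 6.16% of all genes, with a median log2 range of 4.76. The widest ranges there were those of the matrix proteins CCN3 (163 CPM in Hs578T-like cells, 0.664 in MDA-MB-453-like cells) and CCN2 (229 and 3.62), and the narrowest those of KAZALD1 (19.9 to 2.48) and IGFBP1. IGFBP1, which adjoins IGFBP3, reached 16.6 CPM among MDA-MB-231-like cells, where IGFBP3 was lowest, and at most 3.29 elsewhere.

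Proteases that cut binding proteins, and their inhibitors, were mostly high in the Hs578T-like group, which led 6 of 11 measured genes and was at least 2-fold above the mean of the others in 9, beside 14% of all genes. At least 4-fold above the next group were 5 of 11, beside 6.16% of all genes. STC2, an inhibitor of PAPPA, was at 336 CPM in the Hs578T-like and 1.51 in the MDA-MB-231-like group, and the matrix protease MMP2 at 96.5 CPM in Hs578T-like cells and at most 0.0820 in the 3 groups of the first capture. ADAM9 (109 to 14.8 CPM) and the lysosomal CTSD (846 to 80.8) had the narrowest ranges. Of 10 receptor substrates and adaptors, 1 was at least 4-fold above the next group, beside the same 6.16%. SH2B3 (37.1 CPM in the Hs578T-like, 0.857 in the BT-474-like group) and IRS2, the sister of IRS1 (24.0 in the MDA-MB-231-like, 0.758 in the Hs578T-like group), ranged most, and the phosphatase gene PTPN11 and SH2B1 least.

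Among 22 measured genes of the PI3K, AKT and FOXO branch, 0 were at least 4-fold above the next group, beside 6.16% of all genes. Their median log2 range was 2.03, beside 1.77 for all genes. The phosphatase gene INPP4B ranged most, with 82.3 CPM in BT-474-like cells and 1.06 in group 6, and TSC1 (18.8 to 11.95) and MTOR (41.8 to 26.4) ranged least. Of 5 measured partners of IGFBP3 and IGF2R, 0 passed 4-fold, beside the same 6.16%. With so few genes, neither count of 0 is read as a finding. CAV1 ran from 20.9 CPM in the BT-474-like to 1756 in the Hs578T-like group and LRP1 from 1.07 to 45.9 in the same groups, while TMEM219, a receptor for IGFBP3, stayed between 50.3 and 104. All 3 IGF2 mRNA binding protein genes were low in the MDA-MB-453-like and BT-474-like groups, at 1.52 CPM or less, and IGF2BP1 was at 40.2 in group 6 and at most 2.30 elsewhere.

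Over the 6 groups, the genes whose level was most like that of IGFBP3 among 5198 genes reaching 50 CPM were MRPL3, SERP1, SLC39A6, PERP, ISY1, UMPS, GYG1, AZIN1, RAB7A and MRPS28. Pearson's r of log2(CPM + 1) lay between 0.91 for MRPS28 and 0.98 for MRPL3. These are 6 points from 2 captures, picked as the highest of all genes.

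Cells of 1 group were then compared after each had been thinned to 10000 UMIs, which left out 16 to 101 shallower cells per group. The spread is given as the variance of a gene's UMIs over cells divided by its mean, which is near 1 when cells differ by counting alone. It was read where the mean was at least 0.1 UMIs. Every case of a member past a ratio of 1.5 was a binding protein, though not every binding protein passed it in every group.

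IGFBP3 had a ratio of 7.56 in HCC38-like cells, 5.59 in BT-474-like cells, 4.88 in MDA-MB-453-like cells, 3.33 in Hs578T-like cells, 2.02 in group 6 and 1.49 in MDA-MB-231-like cells. In the HCC38-like group 43.7% of 2468 cells had a UMI (interval 41.7 to 45.7), 63.3% before thinning. A mean of 1.77 UMIs spread evenly would leave 17.1% of cells at 0, but 56.3% were. The 10% of cells with the most held 59.1% of all IGFBP3 UMIs, 99 cells had 10 or more, and the highest had 44. The Hs578T-like group had nearly the same mean (1.46) but fewer empty cells, at 41.9%, and the top 10% held 43.5%. By 3 equal classes of HCC38-like cells, IGFBP3 was at 2.04 UMIs in the lowest and 1.37 in the highest class of mitochondrial share, at 1.95 and 1.66 by total UMIs and at 2.08 and 1.45 by the G2/M gene list, so no class held most of it. In the MDA-MB-453-like group the transcripts were in few cells: 23.3% had a UMI, and the top 10% held 74.7%.

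IGFBP5 spread most of all in the HCC38-like group, with a ratio of 43.1. There 10.7% of cells had a UMI, the top 10% held 98.8% of UMIs, 39 cells had 10 or more and the highest had 165, while the median cell had 0. This was not lost without doublets and mixed barcodes, where the ratio was 45.3. In the BT-474-like group, by contrast, 99.4% of cells had IGFBP5, with a median of 29 and a top of 217 UMIs, and the ratio was 19.6. The MDA-MB-453-like group had a median of 5, a highest cell of 179 and a ratio of 20.1, and the Hs578T-like group a ratio of 5.82. The ratio of 11.9 in the MDA-MB-231-like group was 1.10 without doublets and mixed barcodes, so it is not read as a spread among those cells.

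IGFBP6 had a ratio of 13.3 in the MDA-MB-231-like group, where the median cell had 1 UMI, 57 of 2910 cells had 10 or more and the highest had 105. Its ratio was 3.40 in the HCC38-like group and 1.31 and 1.38 in the Hs578T-like group and group 6. IGFBP7 and IGFBP4, in nearly every MDA-MB-231-like cell (98.2% and 95.3%), had ratios of 2.53 and 2.08 there. IGFBP2 had 2.21 in MDA-MB-453-like cells and 1.98 in HCC38-like cells, but 1.29 in BT-474-like cells at a mean of 1.88.

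**Figure D2:**
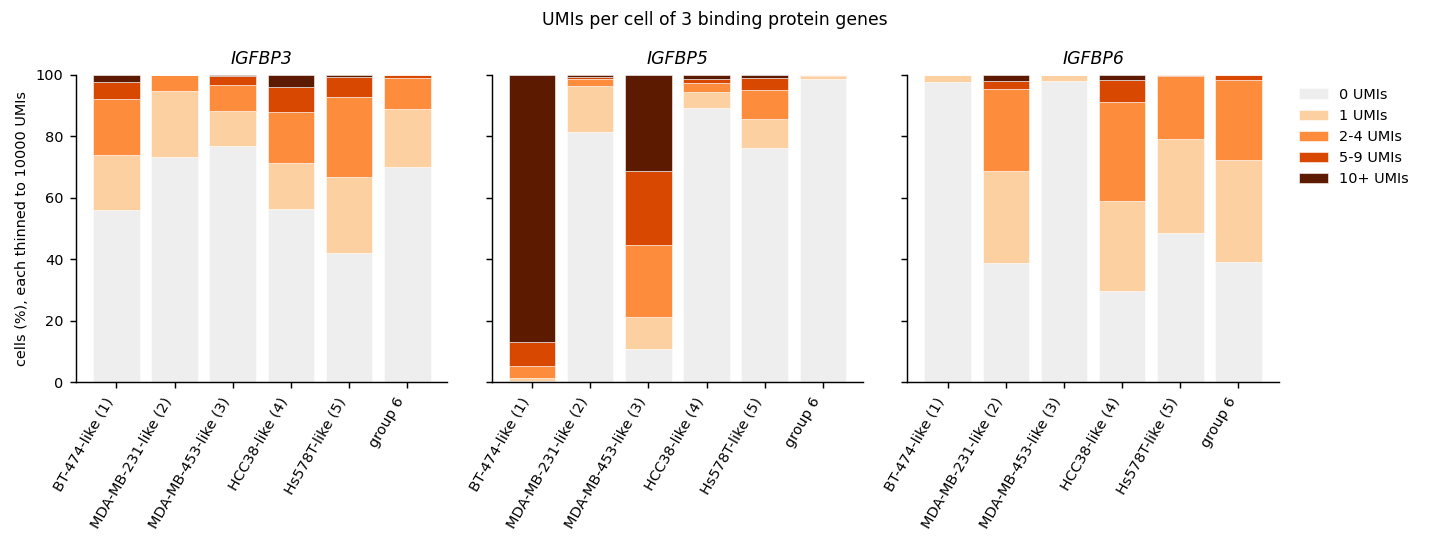
Share of cells by their UMIs of IGFBP3, IGFBP5 and IGFBP6, as stacked bars per group after thinning to 10000 UMIs per cell. IGFBP3 is found in 23.3% to 58.1% of cells in every group, while cells with 10 or more UMIs of IGFBP5 make up 86.9% of the BT-474-like and 1.58% of the HCC38-like group.

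The receptors and IRS1 showed little spread in any group. Where they could be read, the ratios of IGF1R, IGF2R, INSR and IRS1 lay between 0.976 and 1.25. The highest was IRS1 in the HCC38-like group. At means of 0.924 UMIs or less, such values leave small differences between cells undetectable at this depth.

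By group, 6 of 9 readable members passed a ratio of 1.5 in the HCC38-like group, against 10.4% of all genes, all of them binding proteins. The count was 4 of 8 in the MDA-MB-231-like group (6.8%), 4 of 7 in the MDA-MB-453-like (5.08%), 3 of 7 in the Hs578T-like (7.25%), 3 of 7 in group 6 (7.91%) and 2 of 7 in the BT-474-like group (5.16%). Without doublets and mixed barcodes it was 3 of 8 in the MDA-MB-231-like group, 3 of 6 in the MDA-MB-453-like group and 2 of 6 in group 6. IGFBP4 in the MDA-MB-453-like group (1.83, then 1.05) and IGFBP7 in group 6 (2.56, then 1.08) lost their place there. With a mean of at least 0.5 UMIs, the share of all genes was higher, at 21.2% in the HCC38-like group, where 5 of 5 members passed. It was 14.7% in the MDA-MB-231-like (3 of 3), 11.3% in the MDA-MB-453-like (3 of 3) and 16.7% in the Hs578T-like group (3 of 6). In group 6 it was 17.0% (1 of 3) and in the BT-474-like group 11.9% (2 of 4). Genes with more UMIs thus passed more often, and the shares above are not matched to the members by mean.

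**Figure D3:**
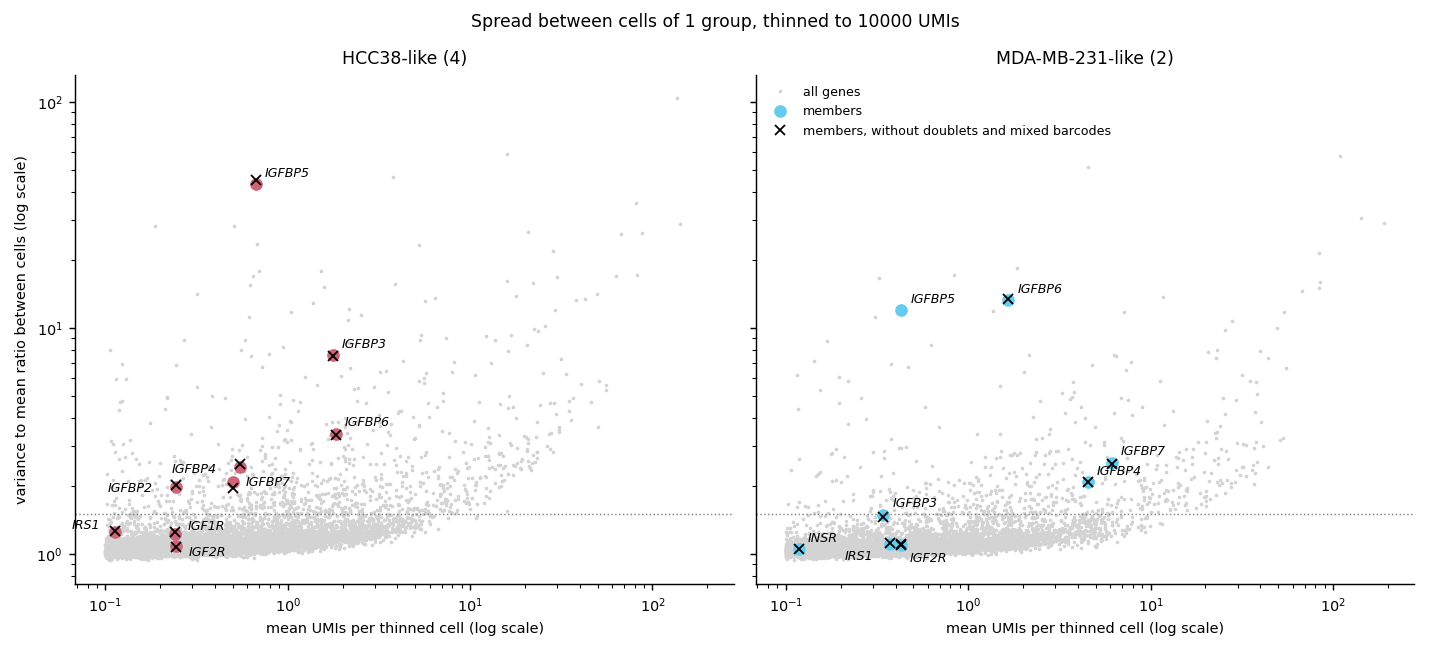
Variance to mean ratio against the mean UMIs per thinned cell, both on log axes, for all genes (grey) and the members (coloured) of the HCC38-like and MDA-MB-231-like groups; crosses leave out doublets and mixed barcodes and the dotted line is 1.5. IGFBP5 stands at 43.1 in the HCC38-like group with or without those barcodes (45.3), but drops from 11.9 to 1.10 in the MDA-MB-231-like group.

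Genes that varied with a member from cell to cell are given by Pearson's r of ln(1 + UMIs) over the thinned cells of 1 group. These cells share a library and a culture, so r is a description with no p. With IGFBP3 in 2468 HCC38-like cells, the highest r was that of TIMP3, an inhibitor of matrix metalloproteases (0.38), followed by MGP, matrix Gla protein (0.29), TPM1, CD24, DSTN, AARD, P3H2, CST6, RARRES1 and EFEMP1. Cells with a UMI of TIMP3 had a mean of 3.20 UMIs of IGFBP3 and cells without had 1.13. The lowest r were those of LDHA, the glycolytic lactate dehydrogenase (-0.27), GAL, RPS28, RPL36 and HSP90AA1. Cells above the median of LDHA had 1.09 UMIs of IGFBP3 and the others 2.31.

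In the MDA-MB-453-like and BT-474-like groups of the first capture IGFBP3 went with other genes. ID1 and ID3, targets of BMP signalling that encode inhibitors of helix-loop-helix factors, had r of 0.36 and 0.29 with IGFBP3 in the MDA-MB-453-like and 0.29 and 0.30 in the BT-474-like group. Above the median of ID1, the mean of IGFBP3 was 1.09 against 0.208 UMIs in the MDA-MB-453-like cells and 2.07 against 0.777 in the BT-474-like cells. In the other 4 groups the r of these 2 genes lay between -0.06 and 0.05. The highest r with IGFBP3 in the BT-474-like group was that of CBLN2, at 0.35. TIMP3 had 0.16 in the Hs578T-like group and 0.05 in the MDA-MB-231-like group. MGP, among the highest in the HCC38-like group, was among the lowest in the BT-474-like group, at -0.21. The trefoil factor genes TFF3 and TFF1 were among the genes with the lowest r in the BT-474-like group, where cells above the median of TFF3 had 0.765 UMIs of IGFBP3 and the others 1.88.

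IGFBP6 varied with interferon-stimulated genes in 2 groups, 1 in each capture. In the MDA-MB-231-like group the 6 genes with the highest r were ISG20, ISG15, OASL, PLAAT4, IFI44 and B2M, from 0.42 for ISG20 to 0.34 for B2M. The 107 cells with a UMI of OASL, an oligoadenylate synthase-like protein induced by interferon, had a mean of 12.1 UMIs of IGFBP6, and the 2803 without had 1.27. In the HCC38-like group PLAAT4 (0.36), B2M (0.34), ISG15 (0.32), CCL5 and OASL (0.27) led, and cells with OASL had 3.29 against 1.58 UMIs. In the Hs578T-like group and group 6, r with ISG15 was 0.12 and 0.09. HSP90AA1 was among the lowest in both of the first-named groups.

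IGFBP5 in the BT-474-like group was lower in cells with mitotic transcripts. The lowest r were those of the mitotic genes CENPF (-0.41), ASPM (-0.41), PRR11 (-0.41) and TPX2 (-0.39), and cells with a UMI of ASPM had a mean of 24.8 UMIs of IGFBP5 against 40.3 without. In the other 4 groups where it could be read, r with these genes lay between -0.10 and 0.08. With the cells ranked by UMIs of a G2/M gene list and cut into 3 equal classes, the mean was 41.3 in the lowest, 39.7 in the middle and 23.0 in the highest class. By the same list it went from 10.6 to 7.77 in MDA-MB-453-like cells and from 1.18 to 0.370 in HCC38-like cells, but from 0.739 to 0.783 in Hs578T-like cells, so the step was not found in the BT-474-like group alone. IGFBP3 in the BT-474-like cells was at 1.68, 1.47 and 0.937.

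The rare IGFBP5 transcripts of the HCC38-like group went with TIMP3 (0.27), FN1, which encodes fibronectin (0.26), MEIS2, MGP, its neighbour IGFBP2 (0.23) and SFRP1. Cells above the median of MGP had 1.18 UMIs and the others 0.185. In 3 equal classes by UMIs of a G1/S gene list, the mean was 1.35 in the lowest and 0.333 in the highest class, and by total UMIs before thinning it was 1.25 and 0.384. Cell cycle and cell depth thus moved together with this gene, and their part in its spread was not tested.

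IGFBP7 varied with genes of the contractile cytoskeleton. In the HCC38-like group CALD1 (0.33), MYL9 (0.32), TAGLN (0.30) and ACTA2 led, and cells above the median of CALD1, which encodes caldesmon, had 0.811 against 0.266 UMIs. Without doublets and mixed barcodes the first 3 were at 0.29, 0.27 and 0.21. These genes were higher in the Hs578T-like group of the same capture, where IGFBP7 was also 9.94-fold higher. CALD1 had a mean of 24.7 UMIs per thinned cell there and 5.26 in the HCC38-like group, and TAGLN had 16.1 and 0.611. The part of free RNA of the Hs578T-like line in the remaining values was not tested. In the Hs578T-like group itself TPM2, MYL9 and CALD1 were among the leading genes, at 0.20 to 0.22. In group 6, r with TAGLN was 0.31 with all barcodes and -0.01 without doublets and mixed ones.

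**Figure D4:**
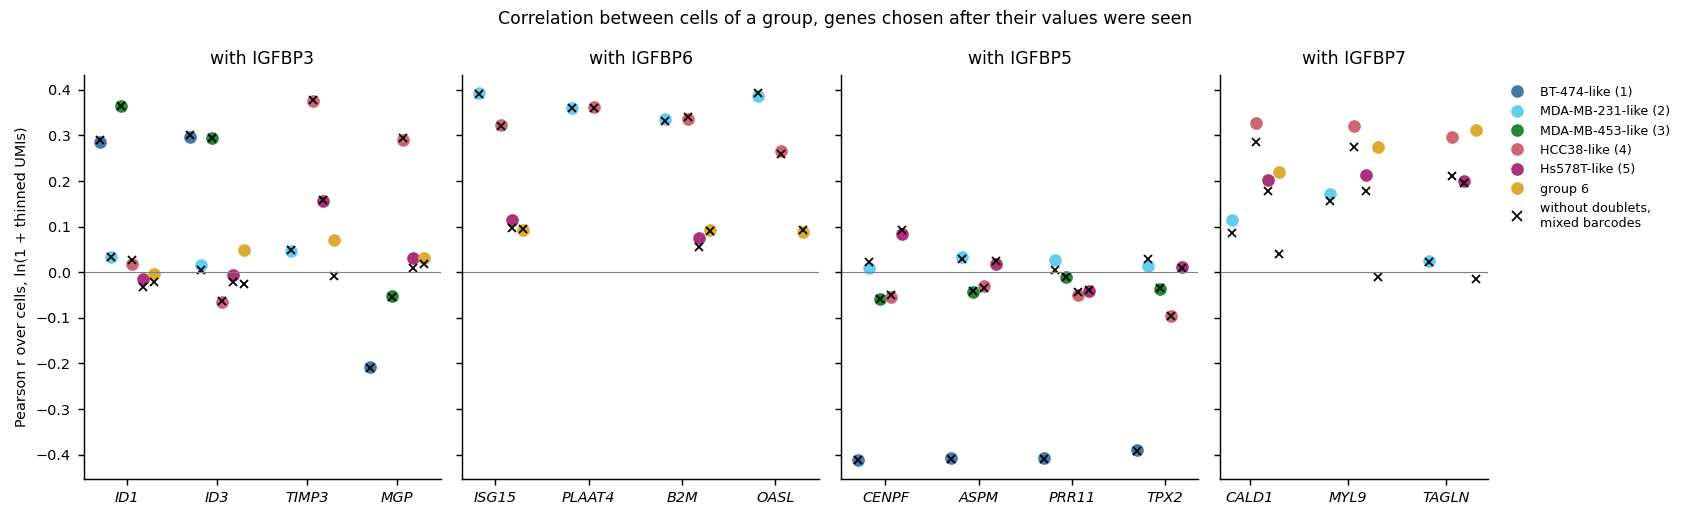
Pearson correlation over cells between a member and 3 or 4 genes, with points by group and crosses for the same value without doublets and mixed barcodes. ID1 and ID3 go with IGFBP3 in the MDA-MB-453-like and BT-474-like groups (0.29 to 0.36), TIMP3 in the HCC38-like group (0.38), and the 4 interferon-stimulated genes with IGFBP6 in the MDA-MB-231-like and HCC38-like groups (0.27 to 0.39).

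Between members the correlations were weak. The highest were IGFBP2 with IGFBP5 in the HCC38-like group (0.23), IGFBP3 with IGFBP7 in the HCC38-like group (0.18) and IGFBP3 with IGFBP5 in the MDA-MB-453-like group (0.17). Values this low in sparse counts are given as a description and read as no finding, and the same holds for the r of 0.23 or less named above.

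The members were last compared between cells with and without a UMI of a surface or lineage marker of their line. Calls were made on the log2 ratio with a pseudocount of 1 CPM, which draws it slightly towards 0, while the ratios printed have no pseudocount. The intervals treat each UMI as an independent count. They leave out the spread between cells and are too narrow where that spread is wide, as for IGFBP3. In group 6 this was BST2, an interferon-stimulated surface protein, with 500 cells with and 1735 without it. IGFBP3 had a mean of 0.128 UMIs in BST2-positive and 0.601 in BST2-negative cells, a ratio of 0.213 (interval 0.163 to 0.274). IGFBP2 had 0.490 and 1.52 (0.323, interval 0.282 to 0.368), and IRS1 0.0700 and 0.188 (0.373, interval 0.255 to 0.529). With IGFBP7, 4 of 7 members were at least 1.5-fold apart, against 9.31% of all genes, but IGFBP7 is among the levels read as background in this group. IGFBP6, IGF1R and IGF2R were within 1.5-fold. Median depth was 31123 and 30890 UMIs and the median mitochondrial share 6.27% and 7.95%. By 3 equal classes of that share, IGFBP3 was at 0.366 UMIs in the lowest and 0.589 in the highest class. IGFBP2 was at 1.07 and 1.43 and IRS1 at 0.133 and 0.205. The part of the mitochondrial share in the differences with BST2 was not tested.

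In the HCC38-like group 160 cells had no UMI of HLA-B, a class I antigen-presenting gene, and 2308 had. IGFBP2 was 5.92-fold (2.86 to 14.8), IGFBP3 2.73-fold (2.26 to 3.34), IGFBP6 1.91-fold (1.63 to 2.25) and IGFBP7 1.72-fold higher (1.29 to 2.35) in the cells with HLA-B, which made 4 of 9 members against 8.02% of all genes. With thinning to 5000 UMIs the log2 ratio of IGFBP7 was 0.53, short of the limit. The mean of IGFBP3 was 1.84 UMIs with and 0.675 without HLA-B. That of IGFBP2 was only 0.259 with and 0.04375 without it. IGFBP2 is also among the levels in this group that could not be told apart from background. In the Hs578T-like group, cells with NEFL, a neurofilament gene, had 1.61-fold more IGFBP3 (1.49 to 1.74) and 1.84-fold more IRS1 (1.45 to 2.33), or 2 of 7 members against 2.09%. Their median depth before thinning was 43956 against 37295 UMIs, and the part of depth in this was not tested.

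In the BT-474-like group, cells with PGR, the progesterone receptor gene, had 0.632 times the IGFBP3 of the others (0.588 to 0.679), or 1 of 7 members against 0.661% of all genes. With thinning to 5000 UMIs the log2 ratio of IGFBP3 was -0.53, short of the limit. IGFBP5 was 1.23-fold higher in the cells with PGR (1.21 to 1.24). With PSCA, a surface antigen, it was 0 of 7 against 2.14%. IGFBP3 lay at the limit: its ratio was 1.501 (1.40 to 1.61) without the pseudocount, and its log2 ratio of 0.58 with it was just short. With at most 10% MT- UMIs that log2 ratio was 1.10. That limit left out most cells of this group, where the median MT- share was 14.5%. In the lowest of 3 equal classes by that share the median was 11.2%. In the MDA-MB-231-like group cells with ESAM, an adhesion molecule, differed in 1 of 8 members against 4.01%. That was IGFBP5 at 0.576 (0.477 to 0.692), with a log2 ratio of 0.03 without doublets and mixed barcodes, and IGFBP6 was just inside the limit at 1.496 (1.40 to 1.60).

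**Figure D5:**
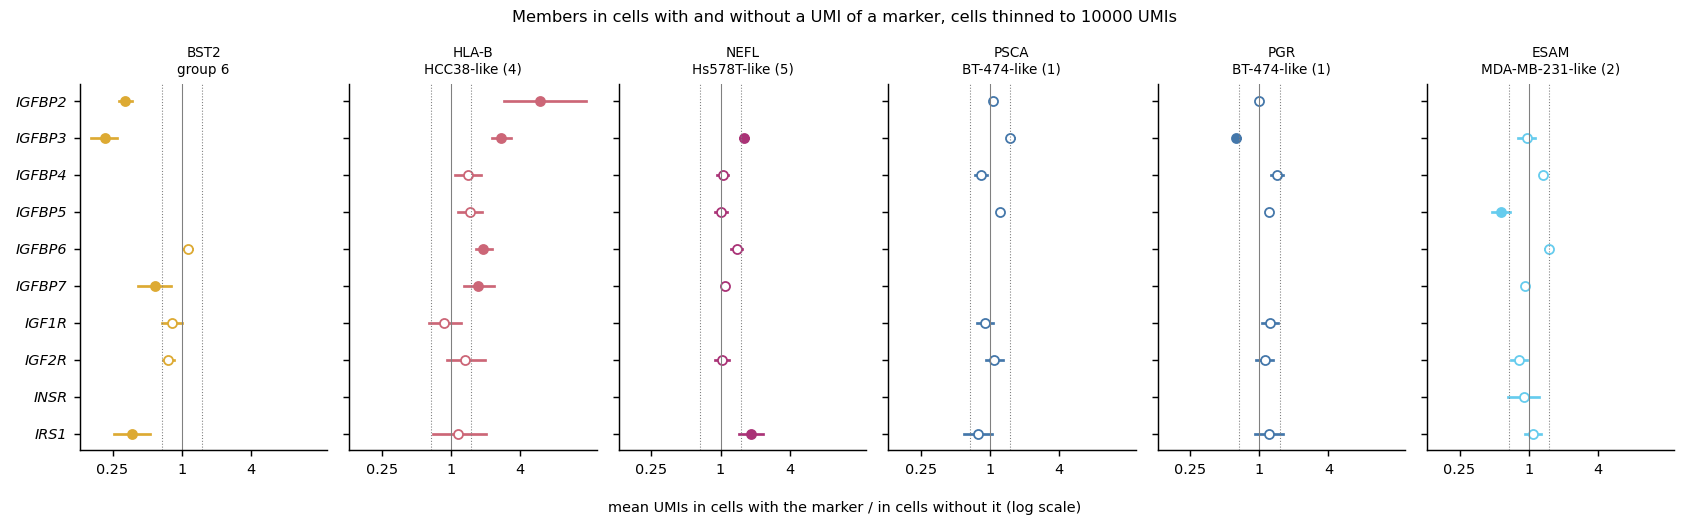
Ratio of mean UMIs in cells with a marker to cells without it, on a log axis, for each readable member, with 95% counting intervals; filled points are at least 1.5-fold apart (dotted lines). IGFBP3 is at 0.213 with BST2 in group 6 and at 2.73 with HLA-B in the HCC38-like group.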

How the data were processed

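The deposited file is 1 matrix of raw UMI counts, 36601 genes and 12 oligos by 17605 barcodes, which Cell Ranger 6.1.2 wrote, per the file headers, from reads aligned to GRCh38 per the submitters' processing notes. For cell calling and oligo assignment, settings were not given in the sources used here. The barcode suffix gave the group. Barcodes with at most 20% MT- UMIs were kept, and counts summed per group, scaled to counts per 1000000 UMIs (CPM, pseudocount 1). Genes reaching 10 CPM in a group were measured. Cells were thinned to 10000 UMIs by drawing without replacement (seed 1). Doublets were called by Scrublet per capture (expected rate 0.06), which marked 251 barcodes or 1.62%. Mixed barcodes, 498 in all, were those where the 50 most specific genes of a second group in that capture reached 25% of its median. Intervals are exact, at 95%, and cover counting error only. Fixed folds were 4 against the next group, 2 against the other groups or within a capture and 1.5 between marker classes.

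All 10 members are named, as are, per pathway list, the 2 genes with the widest and the 2 with the narrowest range. Where that rule or a marker list named an item that is not printed, it is not reported here. For IGFBP3, the 10 genes with the highest and the 5 with the lowest correlation are named. Genes correlated with other members or in other groups were chosen after their values were seen, as was the removal of mixed barcodes. Members, lists and markers were chosen with earlier results of these data known. Scripts ran on Python 3.11.15, scipy 1.17.1, scanpy 1.11.5 and edgeR 4.0.16 (TMM only) and were tested on simulated data.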

Additional observations from a re-analysis of the deposited data

How the results depend on the processing

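Alternatives were TMM scaling, a limit of 10% MT- UMIs or none, at least 1000 UMIs and 500 genes with doublets removed, pseudocounts of 0.1 and 5 CPM, a CPM minimum of 1, thinning to 5000 UMIs, a mean of at least 0.5 thinned UMIs and, added after seeing the data, removal of doublets and mixed barcodes. The count of members at least 4-fold above the next group was 1 under each alternative that applies to group sums. Over the 6 groups there were 18 cases of a member at least 2-fold higher (15 to 22 under the alternatives), 16 at least 2-fold lower (14 to 18), 34 at least 2-fold apart within a capture (33 to 36) and 22 with a variance to mean ratio of 1.5 or more (17 to 24). The log2 ratio of IGFBP3 between the HCC38-like and the next group, 0.17, became -0.11 with TMM scaling, 0.22 with at most 10% MT- UMIs and 0.25 without doublets and mixed barcodes. Of 12 cases at least 1.5-fold apart between marker classes, 6 were left with thinning to 5000 UMIs, where IGFBP3 with PGR, IGFBP5 with ESAM and IGFBP7 with HLA-B came under the limit (-0.53, -0.48 and 0.53 on the log2 scale) and the others were no longer readable, and 6 with a mean of at least 0.5. IGFBP5 with ESAM, -0.77 on the log2 scale, was 0.029 without doublets and mixed barcodes and -0.09 with at least 1000 UMIs and 500 genes and Scrublet doublets removed. With at most 10% MT- UMIs, IGFBP7 with BST2 was at -0.57, short of 1.5-fold. IGF1R was highest in group 6 instead of BT-474-like cells under 4 alternatives, those of the MT- limit and the 2 that remove doublets. In group 6, 0 of 5 members passed the ratio of 1.5 with thinning to 5000 UMIs, where IGFBP2 was at 1.33 and IGFBP3 at 1.36. No paired analysis was possible because each line was a single culture without replicate numbers.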

Other observations

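The 2058 barcodes above 20% MT- UMIs, left out of all comparisons, held the same binding proteins at other levels. MT- UMIs count in the total of CPM, so a high MT- share by itself lowers the CPM of all other genes in these barcodes. In 687 such BT-474-like barcodes, IGFBP3 was at 162 CPM against 124 in the kept barcodes, IGFBP2 at 154 against 188 and IGFBP5 at 2990 against 3401. In 529 barcodes of group 6, IGFBP2 was at 39.8 CPM against 132 and IGFBP6 at 35.0 against 107, while IGF2R was at 106 against 90.1. IGF1R was higher above the limit in all 6 groups, for example at 23.2 against 9.22 CPM in the Hs578T-like group and 46.5 against 29.5 in group 6. Some of these values rested on few counts, with 51 UMIs in the Hs578T-like group and 21 in the MDA-MB-231-like group.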
